A study of Homo sapiens with 6 samples.

Results

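The HOX genes of the HOXA, HOXB, HOXC and HOXD clusters were taken as every gene whose symbol is the cluster name followed by a number, and antisense transcripts of the clusters were left out. Of 39 such genes in RefSeq, 28 had at least 1 probe set that names them alone, and these 28 genes had 44 of the 54613 probe sets on the arrays. They were 1 gene of HOXA, HOXA2, all 10 of HOXB, all 9 of HOXC and 8 of the 9 of HOXD. The other HOX genes were not analysed here.

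The resistant cells were HT29 cells, a human colon adenocarcinoma line, resistant to 10 μM methotrexate (MTX), an antifolate drug, and they were set against the sensitive HT29 cells, with 3 arrays of each. The resistant line was obtained by stepwise exposure to MTX. It grew with dialyzed serum in a medium that lacks thymidine, hypoxanthine and glycine, whereas the sensitive line grew with fetal bovine serum in Ham's F12. Medium and resistance therefore cannot be told apart. RNA was hybridized to Affymetrix HG U133 PLUS 2.0 arrays, and values are MAS5 signals divided by the median of their array, so that a scaled signal of 1 equals the array median. A probe set was called dim when its mean scaled signal over the 6 arrays was under 1, and dim probe sets were not tested. No source used here says that the 3 samples of a group came from separate cultures, so p-values measure only how these samples vary, and part of that may be technical. As in any bulk sample, fewer cells that express a gene and less RNA per cell cannot be told apart. Array medians lay between 13.3 and 16.9 in resistant and between 14.2 and 15.4 in sensitive samples. Of 11 markers of colon epithelium, 9 were bright enough to test, with a summed scaled signal of 1599 to 1797 in resistant and 2061 to 2273 in sensitive samples, and the dim ones were CDX1 and CDX2. Of the 9 tested epithelial markers, 6 were lower and 1, CDH17, was higher at an adjusted p under 0.05 in limma. Over all tested genes 22.5% were lower and 12.4% higher. The 3 leukocyte markers summed to 0.661 to 2.30 in resistant and 2.20 to 3.80 in sensitive samples, the 3 endothelial markers to 2.63 to 2.86 in resistant and 1.39 to 2.21 in sensitive samples, and the 5 fibroblast markers to 1.23 to 3.28 in resistant and 3.15 to 4.84 in sensitive samples. Within these lists CD14, a monocyte marker, was lower at -2.81 (adjusted p = 0.0013 in limma), with a mean of 0.463 in resistant and 2.41 in sensitive samples. CD14 met the limit for testing only through its sensitive arrays, and the size of its fall rests on resistant signals under 1. LUM, a fibroblast marker, was dim at 0.127 in resistant and 1.63 in sensitive samples, with no overlap. The part of these markers in the results was not tested.

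HOX genes encode transcription factors that bind DNA through a homeodomain, most of them together with PBX and MEIS partners, and they set the identity of segments along the body axis of the embryo. The order of the genes in a cluster follows the order of the regions they pattern, so that low paralog numbers are anterior and high ones posterior. Genes with the same number in different clusters are paralogs. In the adult, the epithelium of the colon keeps HOX expression, with HOXB13 known as a marker of the prostate and of the distal colon.

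Promoter sequence is shown for every tested HOX gene with an entry in the RefSeq table (3 of 15), without a choice by result. They are HOXA2, the gene with the deepest fall, and HOXC4 and HOXC5, which did not pass the test. The entries of HOXC4 and HOXC5 share 1 start and so have the same sequence. Each run is the 250 bases before the start in GRCh38.p14, 5′ to 3′, at chr7:27102684-27102933 on the minus strand for HOXA2 and at chr12:54016638-54016887 on the plus strand for HOXC4 and HOXC5. Capitals mark the letters TGATNNAT, as bound by HOX proteins with PBX, TTTATNG, as bound by CDX proteins and posterior HOX proteins, or CCAAT, on either strand.
HOXA2: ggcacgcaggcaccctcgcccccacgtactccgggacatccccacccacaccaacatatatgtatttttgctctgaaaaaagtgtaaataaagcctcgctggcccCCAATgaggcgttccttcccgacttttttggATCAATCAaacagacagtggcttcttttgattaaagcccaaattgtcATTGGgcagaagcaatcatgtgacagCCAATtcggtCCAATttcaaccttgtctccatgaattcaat
HOXC4 and HOXC5: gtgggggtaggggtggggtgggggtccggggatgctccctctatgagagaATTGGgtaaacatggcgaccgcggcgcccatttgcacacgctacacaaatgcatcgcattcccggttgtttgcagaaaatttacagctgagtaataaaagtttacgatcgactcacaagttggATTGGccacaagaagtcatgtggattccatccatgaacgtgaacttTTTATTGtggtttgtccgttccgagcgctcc
The HOXA2 sequence held 1 copy of TGATNNAT, which occurred in 6.49% of 34788 promoter windows of the same length, 4 copies of CCAAT, which occurred in 32.0% of them, and none of TTTATNG. The HOXC4 and HOXC5 sequence held 1 copy of TTTATNG, which occurred in 8.95% of the windows, 2 copies of CCAAT and none of TGATNNAT. No marked copies overlapped. A match gives only the letters, and binding was not measured in these samples.

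Most of the HOXB cluster was above the dim limit in both cell lines, whereas no HOXD gene was. At their brightest probe sets, 15 of the 28 HOX genes were tested, which were HOXA2, 9 of 10 HOXB genes, 5 of 9 HOXC genes and none of 8 HOXD genes. In resistant cells HOXB2, HOXB4, HOXB13 and HOXC6 were higher and HOXA2 and HOXB3 were lower at an adjusted p under 0.05 (limma with Benjamini-Hochberg adjustment over 11835 tested genes), and the other 9 tested genes did not pass. The 4 higher genes are 26.7% of the 15, against 12.4% of all tested genes, and the 2 lower ones are 13.3%, against 22.5% of all tested genes. HOXB13 met the limit for testing only through its resistant arrays, so its call is no support for these shares. It was also the 1 HOX gene past 3-fold, which 4.13% of all tested genes were in either direction, and that size rests on dim sensitive signals and is lost when signals under 1 are set to 1. Without resistant replicate 1 there were 4 lower HOX genes, with HOXB5 and HOXB7 added, and without resistant replicate 3 or sensitive replicate 3 there was 1, HOXA2. The median log2 fold change was 0.07 over the 15 HOX genes and -0.10 over all tested genes. After quantile normalization the median of all tested genes was 0.02, and 5 HOX genes were higher and 1 was lower, with HOXB6 gained and HOXB3 lost. A two-group test with equal variances, of the kind the methods name, called 1 HOX gene lower, HOXA2, and 0 higher, and one with unequal variances called 0 in either direction, while at an unadjusted p under 0.05 they found 6 and 4 of the 15 genes.

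**Figure D1:**
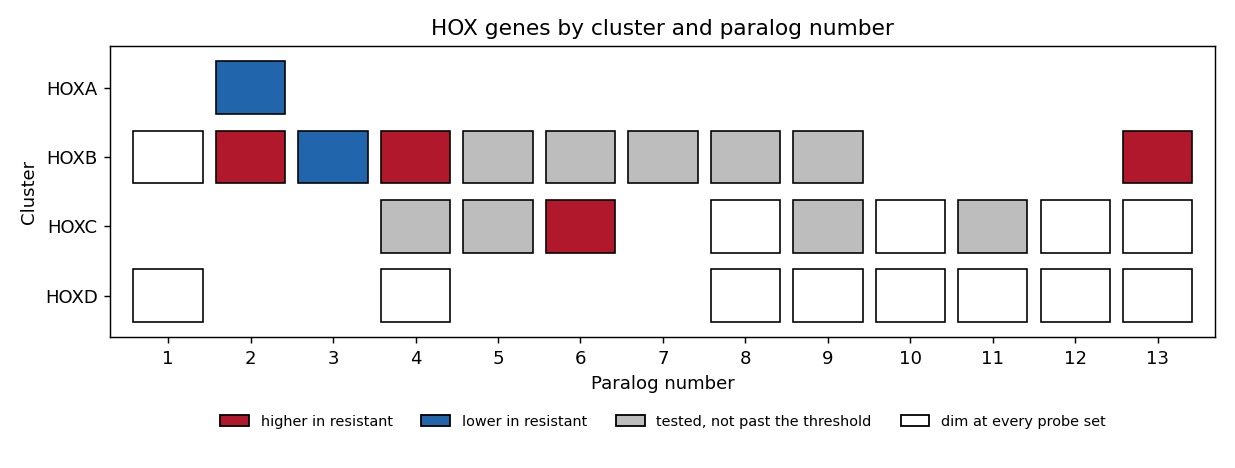
In this map of HOX genes by cluster (rows) and paralog number (columns), red marks genes higher and blue genes lower in resistant cells at an adjusted p under 0.05, grey marks tested genes that did not pass, white marks genes that were dim at every probe set, and an empty position has no gene with a probe set of its own here. The 8 HOXD genes are all white, and the HOXB row holds 3 of the 4 red genes and 9 of the 15 tested genes.

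Of the anterior paralogs, numbered 1 to 3, 3 of 5 genes were tested, and 1 was higher and 2 were lower. Over all tested genes 12.4% were higher and 22.5% lower, and 3 genes are too few to describe the anterior group. HOXA2, which in the mouse patterns the hindbrain and the second branchial arch, had scaled signals of 1.97, 1.58 and 1.38 in resistant cells, against 4.68, 4.45 and 5.11 in sensitive cells. Every resistant array lay under every sensitive array, with means of 1.65 ± 0.298 in resistant and 4.74 ± 0.337 in sensitive cells (SD, n = 3 each). In limma HOXA2 was at -1.54 ± 0.26 (log2 fold change ± SE, adjusted p = 1.1e-05), and over the alternatives run the call was lost with unequal variances (adjusted p = 0.071) and at the 3-fold threshold, since the fall was 2.91-fold. HOXB2, which acts in the mouse hindbrain, had scaled signals of 4.67, 5.18 and 4.92 in resistant cells, against 1.75, 3.19 and 3.73 in sensitive cells. The resistant arrays were close together and all above the sensitive ones, which were spread, with replicate 1 the lowest. In limma HOXB2 rose by 0.84 ± 0.25 (log2 ± SE, adjusted p = 0.0069). The rise was 0.51 without sensitive replicate 1 (adjusted p = 0.12) and 0.80 without resistant replicate 2 (adjusted p = 0.054), and neither passed. In limma HOXB2 also did not pass without the filter on dim signals (adjusted p = 0.061) or without the mean-variance trend (adjusted p = 0.063). HOXB3, the neighbour of HOXB2 in the cluster, went the other way, with 49.0, 53.2 and 42.7 in resistant cells, against 63.2, 62.8 and 70.8 in sensitive cells. The groups did not overlap, but the change was small, at -0.45 ± 0.14 (log2 fold change ± SE, adjusted p = 0.011 in limma). Without resistant replicate 3 it was -0.36 (adjusted p = 0.091), and without sensitive replicate 3 it was -0.39 (adjusted p = 0.096). Its other tested probe set, with a mean scaled signal of 1.86 ± 0.479 in resistant and 2.03 ± 0.496 in sensitive cells (SD, n = 3 each), was at -0.13 and did not pass. HOXB1, another anterior gene of the hindbrain, was dim at both probe sets, and its brightest had between 0.130 and 0.722 in resistant and between 0.0867 and 0.493 in sensitive cells, with overlapping groups. HOXD1 was also dim, with signals up to 1.07 in resistant and up to 1.43 in sensitive cells at its brightest probe set.

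**Figure D2:**
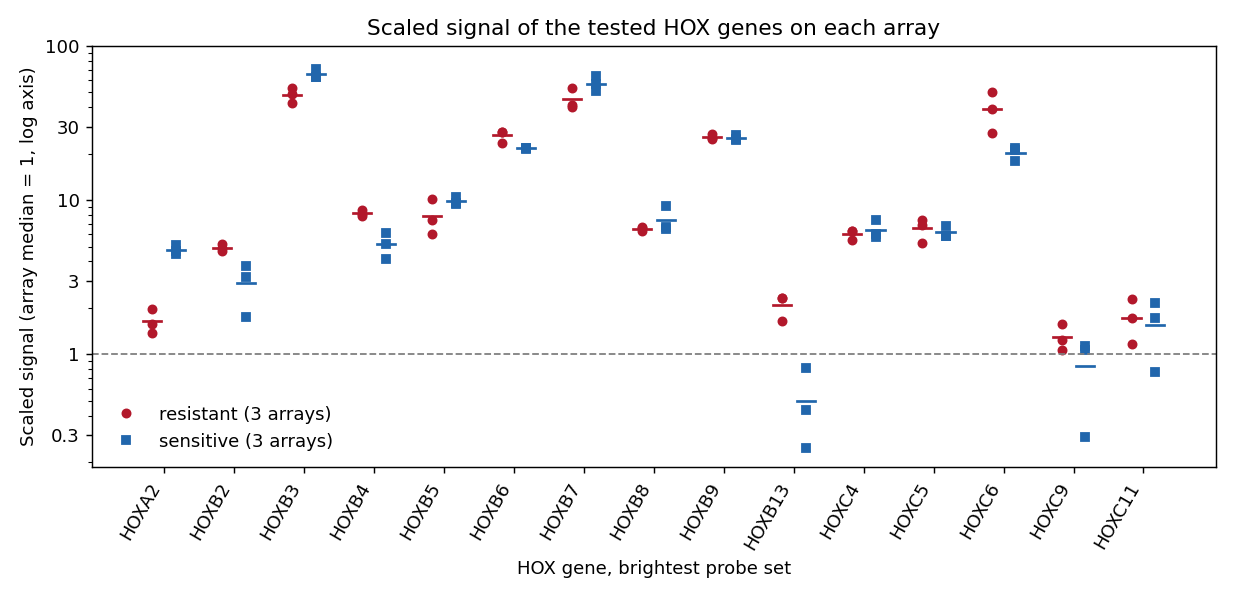
Scaled signal (log axis, array median 1, dashed) of the brightest probe set of each tested HOX gene, with red circles for resistant and blue squares for sensitive arrays and a line at each group's mean. The groups do not overlap for HOXA2, HOXB2, HOXB3, HOXB4, HOXB6, HOXB13 and HOXC6, and levels of different genes come from different probes and cannot be compared.

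Of the central paralogs, numbered 4 to 8, 8 of 11 genes were tested, and HOXB4 and HOXC6 were higher. The other 6 did not pass the test. HOXB4, known for its role in the expansion of blood stem cells, had scaled signals of 8.08, 7.89 and 8.62 in resistant cells, against 6.14, 4.18 and 5.16 in sensitive cells. All resistant arrays were above all sensitive ones. It rose by 0.68 ± 0.19 in limma (log2 ± SE, adjusted p = 0.0043), and without sensitive replicate 2 by 0.54, which did not pass (adjusted p = 0.066). HOXC6, a gene raised in several carcinomas, had scaled signals of 50.6, 39.2 and 27.4 in resistant cells, against 21.7, 17.9 and 21 in sensitive cells. The resistant arrays were widely spread but none reached down to the sensitive range. HOXC6 rose by 0.91 ± 0.18 in limma (log2 ± SE, adjusted p = 7.2e-05), and it stayed past the threshold with any 1 array left out.

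The neighbours HOXC4 and HOXC5 did not pass the test. HOXC4, which is also expressed in lymphocytes, had 6.26, 6.27 and 5.50 in resistant cells, against 7.41, 5.78 and 6.03 in sensitive cells, with overlapping groups and a log2 fold change of -0.09 (95% interval -0.47 to 0.30). HOXC5 had 6.93, 5.25 and 7.46 in resistant cells, against 5.85, 6.81 and 5.88 in sensitive cells, with a log2 fold change of 0.07 (95% interval -0.31 to 0.46). Both intervals lie under the 0.91 of HOXC6, but the difference between these genes was not tested. HOXC8, the next member of the cluster, was dim, with 1.07, 1.28 and 1.06 in resistant cells, against 0.0915, 0.160 and 0.890 in sensitive cells. Its resistant arrays were all above its sensitive arrays, at signals that set no firm level.

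From HOXB5 to HOXB9, no gene passed the test at its brightest probe set. HOXB6 had 27.8, 27.8 and 23.4 in resistant cells, against 21.9, 21.9 and 21.3 in sensitive cells. The groups did not overlap, and the log2 fold change was 0.27 (95% interval -0.05 to 0.59, adjusted p = 0.18 from limma). This call depended on the scaling, with 0.46 after quantile normalization (adjusted p = 0.0059) and 0.32 without further scaling (adjusted p = 0.032). HOXB7, known as overexpressed in breast cancer, had 53.5, 41.6 and 40.0 in resistant cells, against 63.5, 50.8 and 56.3 in sensitive cells, a log2 fold change of -0.34 (95% interval -0.64 to -0.04, adjusted p = 0.069 from limma). Resistant replicate 1 lay within the sensitive range, and without it HOXB7 was at -0.47 (adjusted p = 0.0066). HOXB5 had 10.1, 7.38 and 6.01 in resistant cells, against 9.56, 9.49 and 10.4 in sensitive cells, a log2 fold change of -0.36 (95% interval -0.73 to 0.02). Here too resistant replicate 1 lay within the sensitive range, and without it the value was -0.56 (adjusted p = 0.010). HOXB8 and HOXB9 were at -0.17 (95% interval -0.54 to 0.21) and 0.02 (95% interval -0.29 to 0.34), with overlapping groups. Over the 15 tested HOX genes, resistant replicate 1 was above its group mean in 12 and resistant replicate 3 in 4, and the source of that difference was not tested. In map order from HOXB2 to HOXB5 the signs of the changes alternated, with the last not past the threshold.

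**Figure D3:**
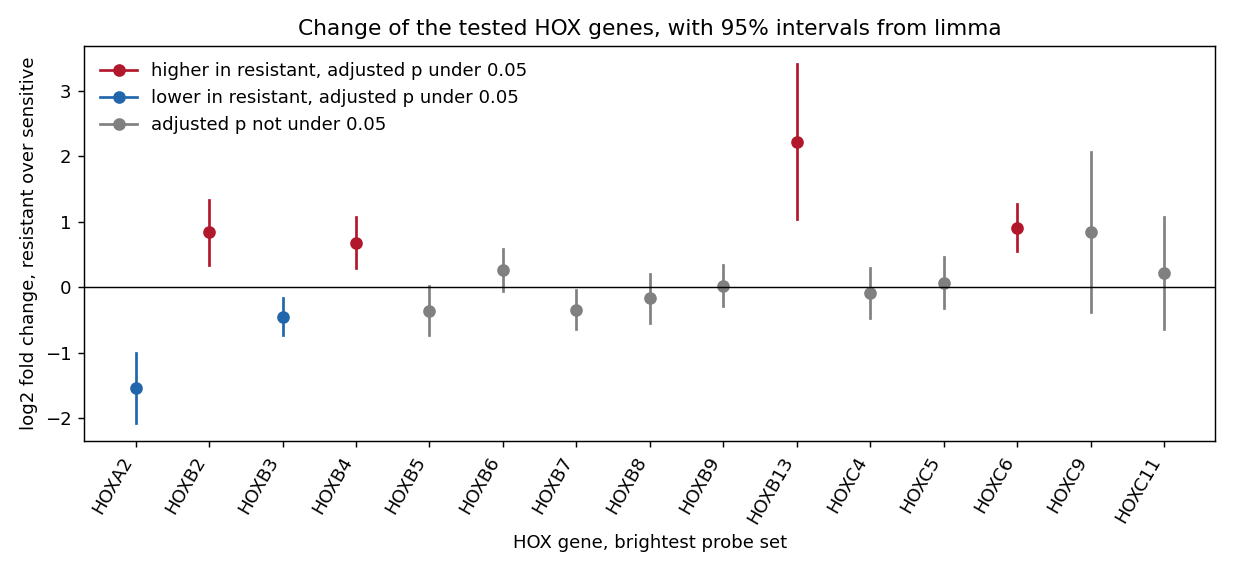
Log2 fold change of the tested HOX genes, 3 resistant over 3 sensitive arrays, with bars for the 95% interval from limma. HOXB13 is the highest at 2.22 with the widest interval among the genes past the threshold, and HOXA2 is the lowest at -1.54.

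Probe sets of the same HOXB gene gave different calls. Of 21 tested HOX probe sets, 4 were higher, where 9.52% of all tested probe sets were, and 4 were lower, where 19.5% of them were. More than 1 tested probe set was available for 5 genes, all of HOXB. On these arrays the suffix _x_at marks probe sets with probes that can bind other transcripts, and _s_at those whose probes are shared by several transcripts, which matters in a family with a conserved homeobox. At HOXB7, the probe set 204778_x_at had 11.1, 10.9 and 11.1 in resistant cells, against 19.3, 18 and 17.3 in sensitive cells, and was lower by -0.72 (adjusted p = 0.0014 from limma over all probe sets). The other 2 probe sets of HOXB7 were at -0.34 and -0.40 and did not pass (adjusted p = 0.078 and 0.066). At HOXB5, 205601_s_at had 7.17, 8.54 and 5.07 in resistant cells, against 9.19, 10.2 and 10.7 in sensitive cells, and was lower by -0.56 (adjusted p = 0.032). With the mean of all its tested probe sets, HOXB7 was at -0.49 (adjusted p = 0.013), HOXB5 at -0.46 (adjusted p = 0.048) and HOXB3 at -0.29 (adjusted p = 0.21). The probe sets of HOXB6 were both above 0, at 0.27 and 0.46, and those of HOXB9 lay on either side of 0, at 0.02 and -0.25, with none past the threshold. HOXC6 rests on a single probe set with the suffix _s_at, and HOXA2, HOXB2 and HOXB4 each rest on a single probe set without these suffixes.

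**Figure D4:**
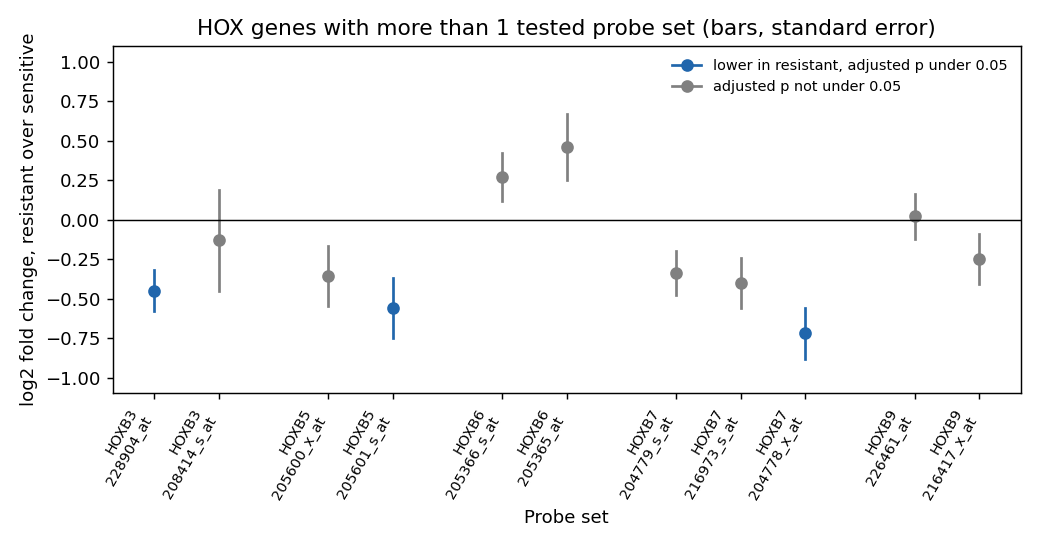
For the 5 HOXB genes with more than 1 tested probe set, the log2 fold change of each probe set in resistant over sensitive cells, with bars of 1 SE on either side (limma). All 3 probe sets of HOXB7 lie under 0, and of these only 204778_x_at, at -0.72, passes an adjusted p of 0.05.

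Among the posterior paralogs, numbered 9 to 13, only 4 of 12 genes were tested, and HOXB13 was higher. Its brightest probe set had 2.33, 2.33 and 1.64 in resistant cells, against 0.817, 0.247 and 0.435 in sensitive cells. All sensitive arrays were under the array median and all resistant arrays above it, with means of 2.10 ± 0.400 in resistant and 0.500 ± 0.291 in sensitive cells (SD, n = 3 each). In limma the rise was 2.22 ± 0.59 (log2 ± SE, 95% interval 1.04 to 3.41, adjusted p = 0.0027). The sensitive mean is under the limit of 1, so that HOXB13 was tested only because of the resistant arrays, and with a limit of 2 it was not tested. Since the sensitive signals set no firm level, the size depends on them, and with every signal under 1 set to 1 the change was 1.05 (adjusted p = 0.0025), under 3-fold. The other probe set of HOXB13 was dim, with 0.797, 1.51 and 0.740 in resistant cells, against 0.246, 0.333 and 1.04 in sensitive cells, and its groups overlapped. HOXC9 had 1.23, 1.57 and 1.06 in resistant cells, against 1.07, 0.293 and 1.14 in sensitive cells, and did not pass (log2 fold change 0.84, 95% interval -0.38 to 2.06). HOXC11 was at 0.22 (95% interval -0.63 to 1.07), with overlapping groups, and both intervals reach past a log2 fold change of 1. The posterior genes HOXC10, HOXC12 and HOXC13 were dim, with signals of at most 0.746 in resistant and 1.07 in sensitive cells.

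The HOXD cluster, whose posterior genes pattern limbs, digits and the urogenital tract, was dim at all 15 probe sets of its 8 genes. Signals lay between 0.0188 and 1.46 in resistant and between 0.0267 and 1.43 in sensitive cells, and 9 of the 90 values reached the array median. HOXD8 came nearest to the limit, with 0.955, 1.21 and 0.959 in resistant cells, against 0.937, 0.720 and 0.890 in sensitive cells. The groups of HOXD8 did not overlap, at signals too close to the limit for a test. Over the cluster, the groups did not overlap at 6 of the 15 dim probe sets, with resistant arrays above sensitive arrays at 4 and below them at 2. The share over all dim probe sets of the arrays was not computed, so this count cannot be read as a trait of HOXD. Both directions were found at HOXD4, where 1552337_s_at had 1.2, 0.750 and 0.456 in resistant cells, against 0.317, 0.0533 and 0.117 in sensitive cells. The probe set 205522_at of the same gene had 0.0451, 0.144 and 0.0947 in resistant cells, against 0.535, 0.400 and 0.188 in sensitive cells. The probe sets of HOXD4 thus went opposite ways. At HOXD9, 205605_at had 0.459, 0.188 and 0.485 in resistant cells, against 1.06, 0.947 and 0.565 in sensitive cells, with all resistant arrays lower, while the groups of 205604_at overlapped. At HOXD10, 229400_at had 0.316, 0.500 and 0.479 in resistant cells, against 0.0986, 0.0933 and 0.0584 in sensitive cells, with all resistant arrays higher, and the groups overlapped at its other probe sets. HOXD12 stayed between 0.0677 and 0.107 in resistant and between 0.0267 and 0.0325 in sensitive cells. HOXD11 and all probe sets of HOXD13 overlapped, and HOXD13 stayed under the array median on every array. Dim signals do not show that a gene is off, since probe sets differ in how well they bind. In all, the arrays of the groups did not overlap for 7 of the 15 tested HOX genes (46.7%), against 46.2% of all tested genes, a share near the background.

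Genes that lie beside or near the clusters were examined from a list of 41, of which 31 were tested. Of these, 1 was higher, 4 were lower and 26 did not pass, with a median log2 fold change of -0.17. Over all tested genes 12.4% were higher and 22.5% lower, with a median of -0.10. Beside HOXB1, SKAP1, which encodes an adaptor protein of T cells, had a mean scaled signal of 1.55 ± 0.586 in resistant and 9.28 ± 1.32 in sensitive cells (SD, n = 3 each). SKAP1 was at -2.65 ± 0.25 in limma (log2 fold change ± SE, adjusted p = 4.1e-11), and all resistant arrays lay under all sensitive ones. At the other end of HOXB, PRAC1, a gene of the prostate and distal colon, was dim in resistant (0.336 ± 0.252) and in sensitive cells (0.244 ± 0.156, SD, n = 3 each). Next to HOXA, SKAP2 was at -0.18 and did not pass, and EVX1, the homeobox gene at the posterior end, was dim. SNX10, a sorting nexin gene of the same region but not next to the cluster, rose by 1.52 (adjusted p = 1.6e-07). Near HOXC, the heterochromatin protein gene CBX5 was at -0.73 and HNRNPA1, an RNA-binding protein gene, at -0.41 (adjusted p = 0.00076 and 0.013), while CALCOCO1 at 0.44 and SMUG1 at -0.16 did not pass. Beside HOXD, MTX2, a mitochondrial import protein gene, was at -0.29 and did not pass, and all 6 tested genes of that flank lay between -0.29 and 0.25. After quantile normalization 8 of the flanking genes were higher, and without resistant replicate 1 the lower ones were 10, against 2 without sensitive replicate 1 or 3, so both counts depended on the processing or the arrays used.

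In a list of cofactors and regulators of HOX genes, more genes were lower than higher. Of 34 genes of TALE cofactors, CDX and other ParaHox genes and retinoid metabolism and receptors, 17 were tested. Among them 1 was higher, 6 were lower and 10 did not pass, with a median of -0.31. The shares over all tested genes were 12.4% higher and 22.5% lower, with a median of -0.10. MEIS2, a TALE partner of HOX proteins, had a mean scaled signal of 18.8 ± 3.70 in resistant and 36.4 ± 1.83 in sensitive cells (SD, n = 3 each), or -0.97 ± 0.16 in limma (log2 fold change ± SE, adjusted p = 1.0e-05). PKNOX1, another TALE partner, was at -0.81 (adjusted p = 0.00034), while PBX2, PBX3, PBX4, MEIS1 and PBXIP1 did not pass. The enzymes ALDH1A1 and ALDH1A3, which make retinoic acid, an inducer of HOX genes in embryos, were at -2.06 and -1.85 (adjusted p = 2.9e-17 and 8.9e-12). The other lower genes were the retinoid genes RDH10 at -0.56 and CRABP2 at -0.55 (adjusted p = 0.0064 and 0.00029). The 1 higher gene was the retinoic acid receptor RARG, at 0.70 (adjusted p = 0.0012). The count of higher genes in that list depended on the scaling and on the arrays and probe sets used, with 3 after quantile normalization, 3 without resistant replicate 3 and 0 without _x_at and _s_at probe sets. CDX1 and CDX2, homeobox factors of the intestine that regulate HOX genes in the mouse, were dim, with means of 0.276 ± 0.168 and 0.228 ± 0.305 in resistant and 0.451 ± 0.193 and 0.0820 ± 0.0530 in sensitive cells (SD, n = 3 each).

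A list of 50 genes held Polycomb genes, which keep HOX clusters silent, Trithorax genes, which keep them active, and partners of MLL (KMT2A). They are called Polycomb or Trithorax genes for short, and 46 were tested. Of these, 6 were higher, 11 were lower and 29 did not pass, with a median of -0.17. Both shares were near those over all tested genes, 12.4% higher and 22.5% lower, where the median was -0.10. EZH2, which methylates histone H3 in Polycomb repression, had a mean scaled signal of 25.0 ± 3.15 in resistant and 52.7 ± 3.14 in sensitive cells (SD, n = 3 each), or -1.08 ± 0.15 in limma (log2 fold change ± SE, adjusted p = 3.2e-07). EED, its partner in the same complex, was at -0.61 (adjusted p = 0.00053), and SUZ12, the third core subunit, was at -0.28 and did not pass (adjusted p = 0.053). PCGF5, a subunit of another Polycomb complex, rose by 1.25 (adjusted p = 4.2e-07). On the Trithorax side, the histone methyltransferase KMT2C was at -0.88 and the chromatin remodeller CHD7 at -1.16 (adjusted p = 3.2e-05 and 1.3e-06), and KMT2A, known for keeping HOX genes active in leukemia, was at -0.29 and did not pass (adjusted p = 0.21). Of the 20 Trithorax genes and MLL partners tested, 3 were higher and 4 lower. The higher ones were KMT2B, a relative of KMT2A, at 0.70 (adjusted p = 0.0047), MEN1, its partner menin, at 0.59 (adjusted p = 0.0049) and ASH2L, a core subunit of these complexes, at 0.50 (adjusted p = 0.02). The lower ones besides KMT2C and CHD7 were RBBP5, another core subunit, at -0.52 (adjusted p = 0.046) and DOT1L at -0.76 (adjusted p = 0.017). The core subunits WDR5 at -0.41 and DPY30 at 0.06 did not pass. With quantile normalization 14 genes of this list were higher, and without resistant replicate 1 the lower genes were 20, so its split depended on the scaling and on that array. All of these lists were chosen with earlier results of these data known.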

How the data were processed

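For each of 6 arrays the authors deposited the MAS5 signal of every probe set, which is an intensity on a linear scale, and the steps they took after MAS5 are not in these values. No source used here gives a MAS5 version. Signals were divided by the array median, as in the study's methods, and values under 0.01 were set to 0.01. A linear model with a mean-variance trend (lmFit, eBayes) was run on log2 values in limma 3.58.1 (R 4.3.3), and p-values were adjusted by Benjamini-Hochberg. Of 54675 probe sets, 62 controls were left out, and 26833 whose scaled signal averaged at least 1 were tested. For genes, the brightest probe set that names 1 gene was used (11835 tested genes). A platform annotation named 41097 probe sets with 1 gene, and 41043 symbols were matched through Entrez identifiers to RefSeq (GRCh38.p14). Promoters came from the RefSeq table. Figures were drawn with matplotlib 3.10.9.

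Alternatives covered scaling, low signals, the filter, the test, a replicate block, the fold threshold, the probe set of a gene and each array left out. No detection calls, scan dates or batches were used, so batches were not tested. Precision is limited by having 3 arrays a group. The fit was tested on simulated data. The members and lists were chosen with earlier results of these data known. By rule, every HOX gene is named, with up to 4 genes past an adjusted p of 0.05 from each other list, and CDX1, CDX2 and the nearest flanking genes. RARG, EED, SUZ12, KMT2A, KMT2B, MEN1, ASH2L, RBBP5, DOT1L, WDR5 and DPY30 were added after their values were seen. So were PBX2, PBX3, PBX4, MEIS1, PBXIP1, RDH10 and CRABP2.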

Additional observations from a re-analysis of the deposited data

How the results depend on the processing

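Alternatives were followed gene by gene for the 15 tested HOX genes, the up to 4 genes named by rule from each list and the nearest tested flanking genes. Among these, no direction past the threshold was turned. RARG, RDH10, CRABP2, EED, KMT2B, MEN1, ASH2L, RBBP5, DOT1L, the cell type markers and the antisense transcripts were not followed in this way. Counts of calls moved by over 1.5 times in 67 of 226 comparisons. The two-group test with unequal variances called 0 HOX genes and 0 HOX probe sets in either direction (4 genes and 6 probe sets at an unadjusted p under 0.05), 0 lower genes in each list, 0 higher flanking genes and 1 higher Polycomb or Trithorax gene. With equal variances 0 HOX genes were higher and 1 was lower, 0 HOX probe sets were higher and 2 were lower (6 genes and 8 probe sets at an unadjusted p under 0.05), 2 cofactor, CDX or retinoid genes were higher, 3 Polycomb or Trithorax genes were higher and 6 lower, and 2 flanking genes were lower. Neither test called a HOX gene at the methods' 3-fold threshold. With the 3-fold threshold in limma, 1 HOX gene and 1 HOX probe set were higher and 0 lower, 0 cofactor, CDX or retinoid genes were higher and 2 lower, 0 Polycomb or Trithorax genes changed, and 0 flanking genes were higher and 1 lower. At 1.5-fold, 1 HOX gene, 2 HOX probe sets and 2 flanking genes were lower. Without the trend HOXB2 and HOXB3 did not pass, so that 3 HOX genes were higher and 1 lower. In that setting 2 HOX probe sets and 2 flanking genes were lower and 2 flanking genes higher.

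Quantile normalization gave 1 lower HOX gene, 2 lower HOX probe sets, and 3 cofactor, CDX or retinoid, 14 Polycomb or Trithorax and 8 flanking genes higher, and over all tested genes 2500 higher and 2234 lower. Scaling to the median of probe sets past the filter gave 2, 11 and 7 higher genes in those lists, and no further scaling gave 5 higher flanking genes. Signals under 1 set to 1, 1 added to every signal, a mean signal of at least 2, and the mean of all probe sets each gave 2 higher flanking genes. Without _x_at and _s_at probe sets there were 0 cofactor, CDX or retinoid genes higher, 7 Polycomb or Trithorax genes lower and 2 flanking genes higher. Deviations of same-numbered arrays correlated at 0.14, 0.01 and 0.08, against -0.11 to 0.03 for differently numbered arrays. Resistant replicates 1 and 3 correlated best with their own number and resistant replicate 2 did not. Pairing by replicate number was therefore neither shown nor excluded. The replicate block gave 19 lower Polycomb or Trithorax genes and 3 higher and 10 lower flanking genes, and with it HOXB7 passed at -0.34 (adjusted p = 0.013). With each array left out in turn, there were 1 to 4 lower HOX genes, 2 to 7 lower HOX probe sets, 1 to 3 higher cofactor, CDX or retinoid genes, 9 to 20 lower Polycomb or Trithorax genes, and 1 to 3 higher and 2 to 10 lower flanking genes. The highest counts of lower genes, 4, 20 and 10, came without resistant replicate 1. Except for effects of the thresholds themselves, the cause of these shifts was not tested. Low signals limit 13 of the 28 HOX genes, which were dim at every probe set and gave no test.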

Other observations

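Antisense transcripts of the HOX clusters, which the choice of members left out, had 15 probe sets of 7 genes. Of the 11 that were bright enough to test, 3 were lower in resistant cells and 0 higher in limma over all probe sets. Over all tested probe sets 19.5% were lower and 9.52% higher, so so small a count is no result about antisense transcripts. HOXA11-AS was lower at both probe sets. The probe set 230666_at had 3.74, 2.91 and 3.78 in resistant cells, against 9.25, 7.07 and 8.13 in sensitive cells, a log2 fold change of -1.23 (adjusted p = 4.9e-05). The probe set 239950_at had 1.74, 1.58 and 1.30 in resistant cells, against 4.68, 4.05 and 4.35 in sensitive cells, a log2 fold change of -1.51 (adjusted p = 6.2e-05). The groups of HOXA11-AS did not overlap at either probe set. HOXA-AS2 was split, with 230080_at at -0.73 (adjusted p = 0.029), 1562640_at at 0.75 (adjusted p = 0.12) and 242528_at at -1.14 (adjusted p = 0.15). The 5 probe sets of HOXB-AS3 lay between -0.69 and -0.01, with none past the threshold. The 3 probe sets that name HOXD3 and HOXD4 together were dim, at mean scaled signals of 0.142, 0.245 and 0.363.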
